A study of Homo sapiens with 12 samples.

Results

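The line-by-resistance interaction asks whether RNA levels changed by different amounts when 2 prostate cancer lines, DU145 and PC3, became resistant to docetaxel. For each gene it is the log2 change from parental to resistant cells in PC3 minus the same change in DU145. A positive interaction means that the gene moved further up, or less far down, in PC3. All 12 libraries entered 1 model with a mean for each of 4 groups, and the 24128 of 38611 listed genes that passed a filter on low counts were tested. The groups were parental DU145 and parental PC3, labelled NC and treated as controls, and their docetaxel-resistant sublines, labelled R, with 3 libraries each. Per the labels, docetaxel selection began at 10 for DU145 and 0.5 for PC3 and went on until the half-maximal inhibitory concentration was 1800 for DU145 and 15 for PC3. The submitters give these amounts in nm/ml, whose meaning is not stated, so the lines also differ in the dose and degree of resistance, which cannot be told apart from the line itself. The labels name 1 resistant subline per line and do not say whether the 3 libraries came from separate cultures. The p-values therefore reflect only how far these libraries differ, possibly for technical reasons, and cannot speak for other resistant sublines.

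Docetaxel is a taxane that binds beta-tubulin, stabilises microtubules and blocks the mitotic spindle. Cells can become resistant by pumping the drug out, by altering tubulin or the proteins that bind it, by withstanding mitotic arrest or death signals, or by changing their state, for example along the epithelial-mesenchymal axis. DU145 and PC3 are both established lines from metastases and grow without androgen, but they carry different lesions, including the loss of CTNNA1 in PC3.

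Libraries held 62513103 to 72530254 counts, and 25695 to 26401 genes had a count. The lines kept a known mark: CTNNA1, which ties cadherins to actin, went from 519 to 383 CPM in DU145 and from 2.91 to 2.23 in PC3. Of 11 genes present in parental PC3 at 20 CPM or more and without a count in parental DU145, the median level in resistant DU145 was 0.0653% of that in PC3, and 5 genes of the reverse kind reached at most 0.313% in resistant PC3. The exception among the 11 was TSNARE1, at 18.2%. Mitochondrial transcripts took 4.11% ± 0.173 (SD, n = 3) of counts in parental and 7.08% ± 0.0528 in resistant DU145, against 5.82% ± 0.197 and 3.5% ± 0.0424 in PC3. The first library of resistant PC3 stood apart from its group in part of its genes: the mean chi-square per gene was 33.8 to each of the other two, which differed from each other by 16.7 (13.5 to 19.2 in the other groups), whereas the medians were 5.83, 5.84 and 5.74. Among markers of other cell types, the leukocyte markers summed to 17.0 to 20.4 CPM in parental and 28.0 to 49.4 in resistant DU145, and to 48.0 to 62.5 and 75.9 to 87.9 in PC3. The defining leukocyte gene PTPRC had no count in either DU145 group but had counts in both PC3 groups. CD3E, a T cell gene, had none in 3 groups, all but resistant DU145. CD74, also on the leukocyte list, went from 0.528 to 8.94 CPM in DU145 and from 0.0821 to 0.200 in PC3. Fibroblast markers summed to 25.6 to 44.6 and 6.93 to 13.4 CPM in DU145 and 127 to 139 and 15.3 to 22.9 in PC3, and endothelial markers to 10.4 to 12.8, 5.00 to 6.39, 247 to 303 and 81.3 to 101, much of it from KDR in PC3 (178 to 40.8 CPM on average). Their part in the results was not tested.

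The change from parental to resistant cells differed between the lines at 10150 genes, 42.1% of those tested, by edgeR's quasi-likelihood test at an adjusted p under 0.05. Of these calls, 5327 (22.1% of genes tested) were above 0 and 4823 (20%) below. Medians of the interaction are over all tested genes of a set, called or not. The median over all genes tested, called or not, was 0.02. The difference was called and at least 2-fold for 5089 genes (21.1%) and at least 8-fold for 1691. Without the first library of resistant PC3, when 25528 genes passed the filter, the counts were 9785, 5146, 4639 and, for at least 2-fold, 4968. Within the lines, 9554 genes (39.6%) changed in DU145, 4556 up (18.9%) and 4998 down (20.7%), and 10615 (44%) changed in PC3, 5405 up (22.4%) and 5210 down (21.6%).

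Of the called genes, 2920 changed in opposite directions, 12.1% of all tested and 28.8% of those called (2748 without the first library of resistant PC3). Of them, 1331 rose in DU145 and fell in PC3 and 1589 did the reverse. Among the 505 opposite genes whose changes were both at least 2-fold, 336 rose in DU145 and 169 rose in PC3. PC3 alone passed at 3027 called genes and DU145 alone at 2291, 941 moved the same way further in PC3, 643 moved the same way further in DU145, and 328 passed in neither line. At 1822 called genes the order of the lines was exchanged with the gap between lines passing both before and after: PC3 went from the lower to the higher line at 987 and from the higher to the lower at 835. Between the parental lines 8667 genes differed at least 2-fold, and between the resistant ones 8321.

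**Figure D1:**
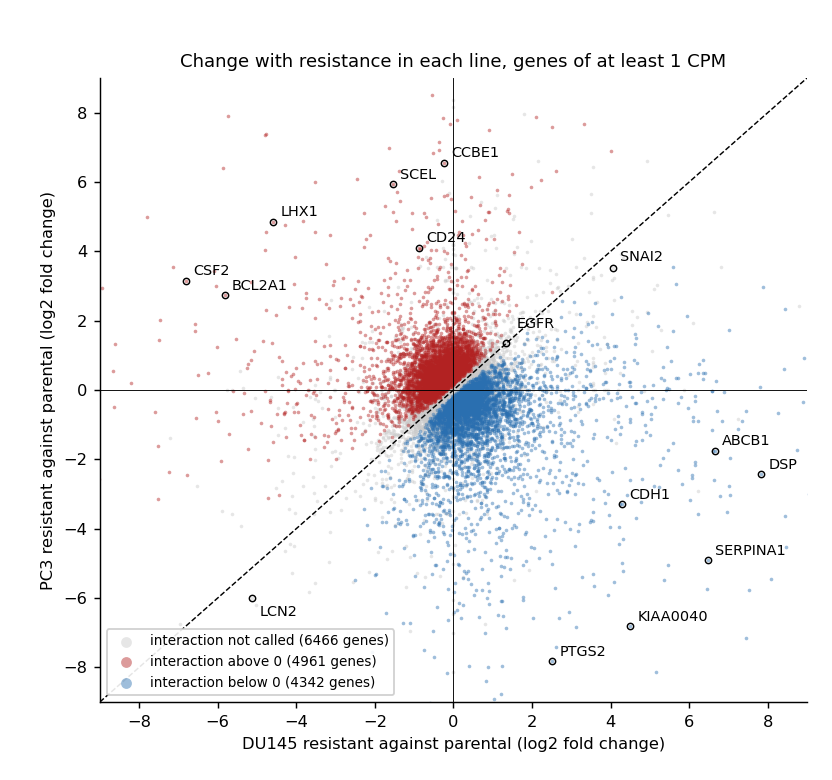
Log2 change from parental to resistant cells in DU145 (horizontal) against that in PC3 (vertical), 1 point per gene with a mean of at least 1 CPM, coloured by the interaction call: 4961 above 0, 4342 below 0 and 6466 not called. Points far from the diagonal differ between the lines, genes in the upper left and lower right moved oppositely, and 54 genes lie outside the axes, which end at 9 log2 units.

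How many genes are called depends on their level. Of genes averaging under 1 CPM, 10.1% were called with a median standard error of 1.81 log2 units, against 68.4% at 20 to 100 CPM (median standard error 0.114) and 79.3% above 100 CPM (0.0694). CPM here means counts scaled to a library total of 1e6 after TMM normalisation. It is not divided by gene length, so it is compared between samples and not between genes. A list of well expressed genes therefore holds more calls, and its share is to be read against these levels as well as against 42.1%.

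Genes that rose in DU145 and fell in PC3 reached the largest interactions among genes with counts in every group. SERPINA1, which encodes the protease inhibitor alpha-1-antitrypsin (ENSG00000197249, chromosome 14, 94376747 to 94390693, GRCh38), measured 0.708, 0.345 and 0.692 CPM in parental DU145, 54.5, 52.5 and 48.6 in resistant DU145, 5.63, 7.89 and 6.43 in parental PC3 and 0.239, 0.0637 and 0.341 in resistant PC3. No library of one group overlapped the other group of its line, and resistant DU145 and parental PC3 were the high groups. The log2 change was 6.47 ± 0.31 (SE) in DU145 and -4.91 ± 0.34 in PC3, an interaction of -11.39 ± 0.45 (adjusted p = 2e-10, edgeR quasi-likelihood test). KIAA0040 had the same pattern, at 0.433, 0.270 and 0.385 CPM in parental DU145, 8.27, 7.4 and 9.03 in resistant DU145, 58.5, 53.7 and 64.3 in parental PC3 and 0.718, 0.573 and 0.284 in resistant PC3 (interaction -11.31 ± 0.33). Further genes are given by the means of their groups, parental first and resistant second, with the interaction and its SE in parentheses. PTGS2, the prostaglandin-forming enzyme cyclooxygenase 2, went from 0.330 to 1.86 CPM in DU145 and from 66.3 to 0.290 in PC3 (-10.34 ± 0.96). In these bulk samples fewer cells expressing a gene and less RNA of it per cell cannot be told apart.

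Further genes of this kind had various roles. CGNL1, a tight junction protein, went from 0.757 to 6.54 CPM in DU145 and from 21.4 to 0.185 in PC3 (-9.95 ± 0.38), and FAM110C, a protein of centrosomes and the spindle, from 1.08 to 16.4 CPM in DU145 and from 81.3 to 1.35 in PC3 (-9.84 ± 0.22). TMEM98, a membrane protein, went from 0.392 to 39.2 CPM in DU145 and from 51.0 to 8.48 in PC3 (-9.22 ± 0.26), BICC1, an RNA-binding protein, from 0.418 to 28.1 CPM in DU145 and from 26.6 to 4.55 in PC3 (-8.62 ± 0.36), and PXDN, a peroxidase that crosslinks collagen IV, from 0.556 to 83.7 CPM in DU145 and from 575 to 262 in PC3 (-8.38 ± 0.31). PMEPA1, a target of androgen and TGF-beta that dampens both pathways, went from 4.85 to 46.7 CPM in DU145 and from 22.9 to 0.542 in PC3 (-8.65 ± 0.30), although it overlaps NKILA on the other strand. All of these changes passed in both lines with opposite signs. SALL2, a zinc finger factor, and MYO1D, an unconventional myosin, made nearly mirror changes: SALL2 changed by 3.98 ± 0.23 in DU145 and -3.96 ± 0.23 in PC3, and MYO1D by 3.49 ± 0.09 and -3.75 ± 0.09.

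In 2 secretory genes the change passed in PC3 alone. MUC5B, a gel-forming mucin, measured 0.303, 0.255 and 0.123 CPM in parental DU145, 0.196, 0.216 and 0.318 in resistant DU145, 219, 214 and 260.5 in parental PC3 and 0.0449, 0.414 and 0.724 in resistant PC3. Only in PC3 did the resistant libraries lie apart from the parental ones, and the interaction was -9.26 ± 1.08. FCGBP, a mucus protein often made alongside mucins, went from 2.40 to 4.90 CPM in DU145 and from 337 to 0.709 in PC3 (-9.94 ± 0.57), with a DU145 change of 1.03 ± 0.38.

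Among the largest positive interactions were genes that fell in DU145 and rose in PC3. LHX1, a LIM homeobox factor (ENSG00000273706, chromosome 17, 36936785 to 36943685), measured 22.9, 23.9 and 26 CPM in parental DU145, 0.693, 1.09 and 1.23 in resistant DU145, 0.148, 0.437 and 0.515 in parental PC3 and 10.1, 10.2 and 11.5 in resistant PC3. Parental DU145 and resistant PC3 were the high groups and no groups within a line overlapped, giving changes of -4.59 ± 0.30 and 4.86 ± 0.32 and an interaction of 9.45 ± 0.43 (adjusted p = 8.63e-11, edgeR). BCL2A1, an antiapoptotic BCL2 relative, measured 13, 10.9 and 11.7 CPM in parental DU145, 0.286, 0 and 0.333 in resistant DU145, 3.24, 2.11 and 2.85 in parental PC3 and 16.3, 20.1 and 18.4 in resistant PC3. It too fell in every resistant DU145 library and rose in every resistant PC3 library, with an interaction of 8.56 ± 0.70.

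Others with a large positive interaction also had various roles. SCEL, a precursor of the cornified envelope, went from 24.3 to 8.36 CPM in DU145 and from 0.303 to 18.6 in PC3 (7.47 ± 0.35), and CPA4, a secreted carboxypeptidase, from 5.77 to 2.25 CPM in DU145 and from 1.66 to 72.7 in PC3 (6.81 ± 0.39). IL1RL1, the interleukin 33 receptor, went from 12 to 0.892 CPM in DU145 and from 4.32 to 30.1 in PC3 (6.55 ± 0.21), and NPR3, the clearance receptor of natriuretic peptides, from 26.2 to 3.17 CPM in DU145 and from 1.01 to 8.86 in PC3 (6.18 ± 0.30). PIK3AP1, an adaptor of phosphoinositide 3-kinase, went from 14.0 to 6.74 CPM in DU145 and from 2.38 to 81.3 in PC3 (6.15 ± 0.29), FOXRED2, an endoplasmic reticulum oxidoreductase, from 13.2 to 4.50 CPM in DU145 and from 0.282 to 9.93 in PC3 (6.68 ± 0.31), and NFASC, the adhesion protein neurofascin, from 37.5 to 4.48 CPM in DU145 and from 2.74 to 22.5 in PC3 (6.10 ± 0.18). FAM83A, an adaptor in EGFR signalling, went from 551 to 118 CPM in DU145 and from 0.876 to 18.1 in PC3 (6.58 ± 0.26), and overlaps an antisense gene. All of these genes fell in DU145 and rose in PC3. CCBE1, a matrix protein of lymphatic growth, rose in PC3 only, from 0.478 to 44.9 CPM, with a DU145 change of -0.23 ± 0.15 (interaction 6.78 ± 0.24).

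**Figure D2:**
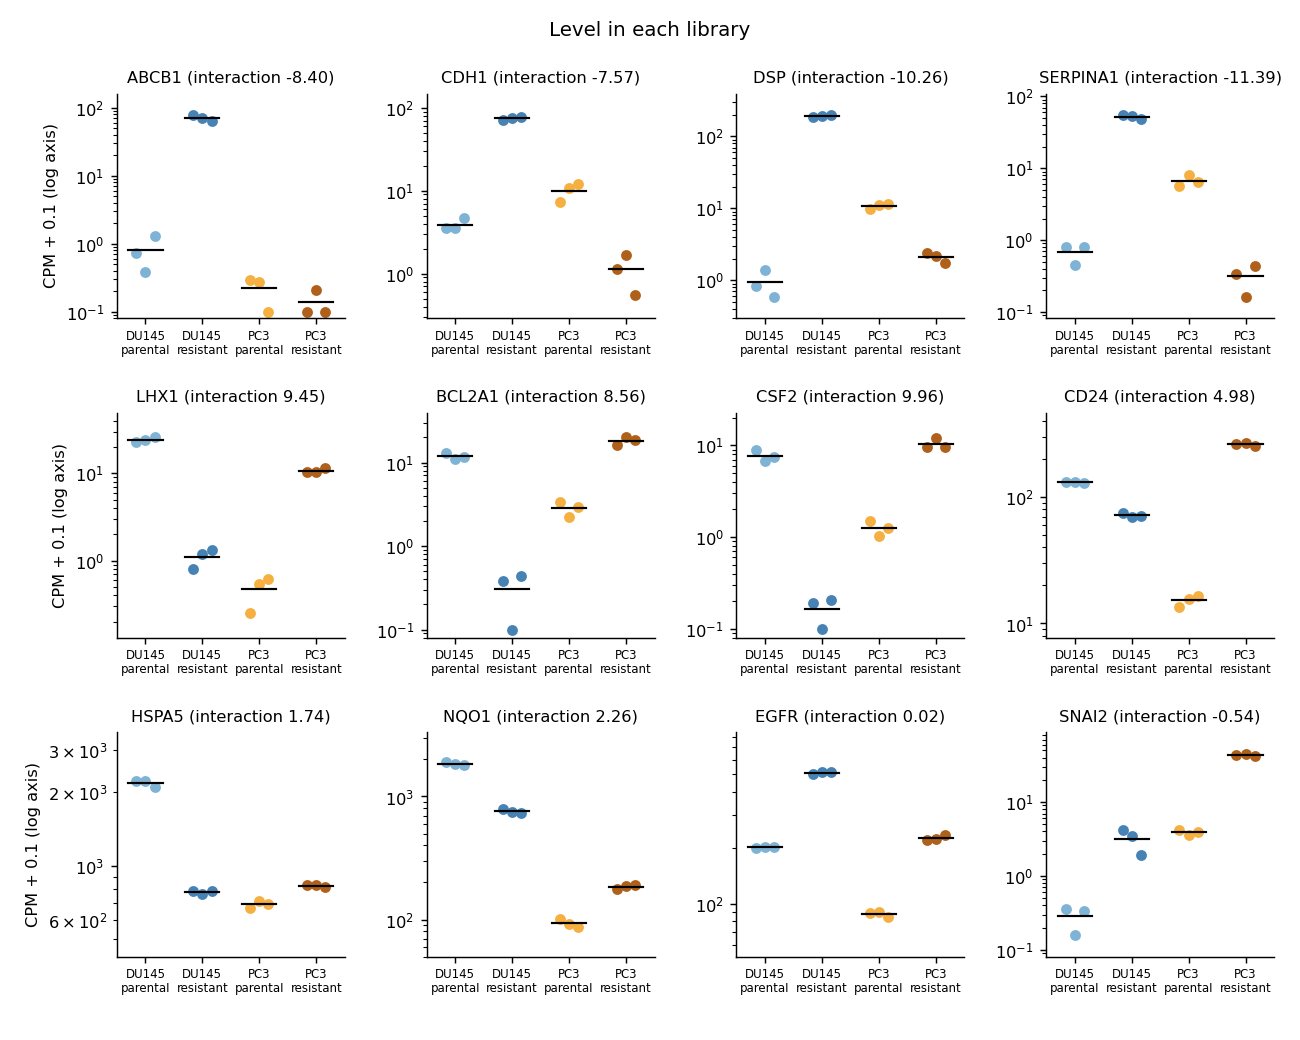
CPM + 0.1 in each library on a log axis for 12 genes, 3 points per group with a line at the group mean. ABCB1 is high in resistant DU145 only, CDH1, DSP and SERPINA1 rose in DU145 and fell in PC3, LHX1, BCL2A1, CSF2 and CD24 did the reverse, and EGFR rose by about the same factor in both lines (interaction 0.02).

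The main taxane pump rose in DU145 and stayed near 0 in PC3. ABCB1 encodes P-glycoprotein, the membrane pump that exports taxanes (ENSG00000085563, chromosome 7, 87503017 to 87713323). It measured 0.621, 0.285 and 1.22 CPM in parental DU145, 77.3, 71.9 and 63.5 in resistant DU145, 0.192, 0.172 and 0 in parental PC3 and 0, 0.111 and 0 in resistant PC3. The resistant DU145 libraries stood far above every other library, and the PC3 libraries were at or near 0 in both groups. The interaction was -8.40 ± 1.61 (95% interval -12.03 to -4.77, adjusted p = 0.00191, edgeR), from a rise of 6.65 ± 0.54 in DU145 and a PC3 change of -1.75 ± 1.44 that did not pass (adjusted p = 0.384). It was -12.68 without the second library of resistant PC3, the only one of that group with a count. ABCB1 overlaps RUNDC3B on the other strand, and the strand setting of the counting is not given in the sources used here.

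The other efflux genes varied. Of 13 efflux genes tested, ABCB1 included, 3 were called above 0 and 6 below, and the median over all 13 was -1.34, ranging from -1.48 to -0.16 over the alternatives (21 other settings of the processing). ABCC3, a pump for organic anions and bile salts, went from 117 to 148 CPM in DU145 and from 352 to 42.6 in PC3 (-3.39 ± 0.11), rising in DU145 and falling in PC3. ABCC6, a relative of the same family, fell in PC3 from 2.37 to 0.418 CPM (-2.79 ± 0.61), and ABCC10, a taxane-transporting member, had an interaction of -1.34 ± 0.13. ABCC2, which exports conjugates and can carry taxanes, rose in PC3 from 0.459 to 2.57 CPM (2.14 ± 0.41). For ABCC1, the broad multidrug pump, the interaction was 0.10 ± 0.07 (95% interval -0.05 to 0.25), which did not pass.

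Tubulins, the target of the drug, differed in both directions. Of 17 isotypes tested, 7 were called above 0 and 4 below, with a median over all 17 of 0.22, ranging from 0.08 to 0.32 over the alternatives; in DU145 5 rose and 3 fell, and in PC3 9 rose and 1 fell. TUBB3, the class III beta-tubulin often studied in taxane resistance, measured 121, 96.2 and 113 CPM in parental DU145, 235, 207 and 239 in resistant DU145, 93.6, 97.4 and 99.5 in parental PC3 and 151, 145 and 155 in resistant PC3. It rose in both lines without overlap, by 1.05 ± 0.07 in DU145 and 0.63 ± 0.07 in PC3, and the interaction was -0.41 ± 0.10 (adjusted p = 0.00376, edgeR). The abundant alpha-tubulin TUBA1B rose in PC3 from 1029 to 2756 CPM and changed by -0.07 ± 0.06 in DU145 (1.49 ± 0.08), while TUBA4A (1.85 ± 0.10) and TUBB6 (1.17 ± 0.07) fell in DU145 and rose in PC3. TUBB, the most widely expressed beta-tubulin, rose further in DU145 (-0.50 ± 0.05). Tubulin genes have near-identical copies and several overlap other genes, so single isotypes are uncertain.

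Proteins that bind microtubules were divided evenly. Of 27 tested, 11 were called above 0 and 12 below, with a median of -0.22 that was above 0 (0.14) when genes under 5 CPM were left out, and 10 moved oppositely. MAP2, a neuronal stabiliser of microtubules, fell in DU145 from 45.8 to 2.43 CPM and changed by -0.37 ± 0.16 in PC3 (3.86 ± 0.24). MAP4, its counterpart in most other cells, went from 636 to 367 CPM in DU145 and from 541 to 798 in PC3 (1.35 ± 0.05), and STMN1, which takes microtubules apart, from 292 to 201 CPM in DU145 and from 149 to 332 in PC3 (1.70 ± 0.07); both fell in DU145 and rose in PC3. The stathmin relative STMN3 did the reverse, from 1.13 to 6.46 CPM in DU145 and from 35.0 to 12.8 in PC3 (-3.97 ± 0.29). MAP7, which recruits kinesin, rose in DU145 alone from 0.427 to 4.71 CPM (-3.75 ± 0.61).

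Most cell junction genes rose with resistance in DU145, and more of them fell than rose in PC3. Of 17 adherens junction and desmosome genes tested, 12 rose and 3 fell in DU145, while 6 rose and 9 fell in PC3, and the interaction was called below 0 for 11 and above 0 for 2, with a median over all 17 of -0.85. DSP, which encodes desmoplakin, the anchor of desmosomes to keratin filaments (ENSG00000096696, chromosome 6, 7541617 to 7586714), measured 0.737, 1.28 and 0.492 CPM in parental DU145, 186, 191 and 196 in resistant DU145, 9.71, 11.2 and 11.5 in parental PC3 and 2.32, 2.07 and 1.65 in resistant PC3. CDH1, the E-cadherin gene (ENSG00000039068, chromosome 16, 68737292 to 68835537), measured 3.41, 3.42 and 4.60 CPM in parental DU145, 70.1, 75.9 and 77.0 in resistant DU145, 7.21, 10.6 and 12 in parental PC3 and 1.05, 1.58 and 0.454 in resistant PC3. In both genes parental PC3 lay above parental DU145 and resistant PC3 below resistant DU145, with no overlap. The interaction was -10.26 ± 0.29 for DSP (adjusted p = 3.29e-11, edgeR) and -7.57 ± 0.45 for CDH1 (adjusted p = 1.07e-07).

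The desmosomal cadherins had the same sign. DSC2 went from 6.84 to 61.5 CPM in DU145 and from 158 to 63.2 in PC3 (-4.49 ± 0.12) and DSC3 from 0.427 to 10.7 CPM in DU145 and from 148 to 114 in PC3 (-5.03 ± 0.21), and JUP, plakoglobin, which links them to desmoplakin, from 12.1 to 32 CPM in DU145 and from 98.8 to 44.6 in PC3 (-2.55 ± 0.15). CDH2, the N-cadherin gene typical of mesenchymal cells, was 1 of the 2 genes called above 0 (2.56 ± 0.54), with levels going from 0.210 to 0.0458 CPM in DU145 and from 80.9 to 108 in PC3. The catenin CTNNA1 fell in both lines with an interaction of 0.05 ± 0.12 (95% interval -0.21 to 0.31), although its PC3 level is residual and limma on log2(FPKM + 1) called it (0.36).

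Tight junction genes followed the same course. Of 20 tested, 2 were called above 0 and 10 below, with a median over all 20 of -0.67, ranging from -1.16 to -0.38 over the alternatives, and 11 rose in DU145 against 4 in PC3. CXADR, a junctional adhesion protein that also serves as a virus receptor, went from 39.8 to 95.4 CPM in DU145 and from 69.0 to 0.747 in PC3 (-7.77 ± 0.24). CLDN1, a sealing claudin, went from 22.2 to 133 CPM in DU145 and from 27.8 to 4.88 in PC3 (-5.09 ± 0.13), CLDN3 from 6.90 to 10.5 CPM in DU145 and from 52.8 to 8.78 in PC3 (-3.19 ± 0.23) and occludin, OCLN, from 12.9 to 32.4 CPM in DU145 and from 4.50 to 1.43 in PC3 (-2.97 ± 0.25); each rose in DU145 and fell in PC3. Among 15 epithelial transcription factors and related genes tested, 6 were called below 0 and 4 above, with a median over all 15 of -2.47, ranging from -2.54 to -0.73 over the alternatives. SPINT1, an inhibitor of matriptase at epithelial surfaces, went from 1.54 to 29.7 CPM in DU145 and from 73.9 to 35.5 in PC3 (-5.33 ± 0.33), and the epithelial factors GRHL1 and ELF3 had interactions of -3.38 ± 0.35 and -2.92 ± 0.13.

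The DSP promoter is shown because DSP had the largest interaction among the junction genes and its promoter holds E-boxes of the kind that SNAI and ZEB repressors bind. The stretch covers the 250 bases before the RefSeq start (chr6:7541421-7541670, plus strand, GRCh38.p14, RefSeq), the start given in the files lies inside it, and capitals mark matches to CACCTG or its other strand CAGGTG:
DSP: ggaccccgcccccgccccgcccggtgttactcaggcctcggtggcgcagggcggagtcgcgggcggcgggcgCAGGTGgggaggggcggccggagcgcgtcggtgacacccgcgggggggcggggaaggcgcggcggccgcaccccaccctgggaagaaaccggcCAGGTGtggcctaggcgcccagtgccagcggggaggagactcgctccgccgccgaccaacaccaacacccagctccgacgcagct
The letters occurred 2 times here. Of the junction genes with a promoter entry, 5 of 15 called below 0 and 0 of 2 called above 0 held a match. Of all 24 tested with an entry, 7 did (29.2%), among them CRB3 and PATJ, which had no call, against 17.5% of all 27305 promoters. Whether the letters bear on the change was not tested. CDH1 has no entry in the promoter table.

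Regulators of the mesenchymal state did not move as a block. Of 18 tested, 3 were called above 0 and 5 below, and 10 did not pass. The share called, 44.4%, was near the 42.1% over all genes tested. ZEB2, a repressor of E-cadherin, went from 4.74 to 1.55 CPM in DU145 and from 0.420 to 3.92 in PC3 (4.83 ± 0.50), and its relative ZEB1 measured 45.2, 49.4 and 44.0 CPM in parental DU145, 42.1, 38.3 and 31.6 in resistant DU145, 46.4, 42.8 and 44.1 in parental PC3 and 78.6, 67.5 and 71.2 in resistant PC3. ZEB1 fell in DU145 (-0.31 ± 0.09) and rose in PC3 (0.70 ± 0.09), an interaction of 1.01 ± 0.13 (adjusted p = 8.93e-06, edgeR), and resistant PC3 was the high group. SMAD7, a feedback inhibitor of TGF-beta signalling, fell in PC3 from 4.46 to 1.0 CPM (-2.29 ± 0.31). ZEB1 overlaps its antisense gene.

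Matrix and mesenchymal effectors split into 2 groups. Of 28 tested, 11 were called above 0 and 12 below, and 17 fell in DU145 and 15 in PC3. The basement membrane chains COL4A1 and COL4A2 rose in DU145 and fell in PC3, from 4.68 to 21.5 CPM in DU145 and from 93.6 to 15.3 in PC3 (-4.81 ± 0.16) and from 7.79 to 35.0 CPM in DU145 and from 219.8 to 34.8 in PC3 (-4.83 ± 0.12), and share a promoter region and overlap. SPARC, a collagen-binding matrix protein, fell in both lines but further in PC3, from 159 to 1.19 CPM (-5.12 ± 0.81). Above 0 were the matricellular gene CCN1, which went from 324 to 161 CPM in DU145 and from 41.8 to 290.1 in PC3 (3.80 ± 0.11), and fibronectin, FN1, which fell in both lines but less in PC3 (1.85 ± 0.11). VIM, vimentin, measured 1432, 1411 and 1408 CPM in parental DU145, 1273, 1189 and 1215 in resistant DU145, 1015, 1070.2 and 1061 in parental PC3 and 686, 673 and 705 in resistant PC3. It fell in both lines, changing by -0.21 ± 0.03 in DU145 and -0.61 ± 0.03 in PC3, an interaction of -0.40 ± 0.05, and it overlaps VIM-AS1.

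Keratins also divided. KRT8 and KRT18, the paired simple-epithelial keratins, went from 392 to 685 CPM in DU145 and from 243 to 66.3 in PC3 (-2.68 ± 0.06) and from 291 to 572 CPM in DU145 and from 211 to 157 in PC3 (-1.40 ± 0.06), though they overlap each other in the annotation. The hair keratin KRT81 moved the other way, from 8.13 to 3.22 CPM in DU145 and from 281 to 1768 in PC3 (3.99 ± 0.20), and KRT7 rose in PC3 alone, from 37.2 to 175 CPM (2.22 ± 0.05). In all, 4 of 10 keratins were called above 0 and 4 below.

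Proteases and integrins gave both shared and divergent changes. Of 24 protease and urokinase genes tested, 8 were called above 0 and 10 below. PLAU, urokinase, rose in both lines, from 159 to 1087 CPM in DU145 and from 373 to 2195 in PC3, with a small interaction (-0.22 ± 0.06), while the other plasminogen activator, PLAT, fell in DU145 and rose in PC3, from 12.9 to 4.26 CPM in DU145 and from 215 to 1158 in PC3 (4.03 ± 0.12). The collagenase MMP1 (from 0.147 to 7.09 CPM in DU145 and from 9.01 to 3.13 in PC3; -7.11 ± 0.81) and the membrane protease MMP14 (from 18.1 to 293 CPM in DU145 and from 148 to 227 in PC3; -3.41 ± 0.06) had interactions below 0. Of 25 integrins, laminins and their partners, 7 were called above 0 and 14 below. The collagen receptor ITGA1 fell in PC3 from 113 to 9.31 CPM (-3.52 ± 0.17), and the laminin chain LAMA3 fell in DU145 from 173 to 19.6 CPM (2.94 ± 0.13). CD44, the hyaluronan receptor, rose strongly in both lines, from 269 to 1766 CPM in DU145 and from 328 to 2383 in PC3, with an interaction of 0.15 ± 0.06 that did not pass (adjusted p = 0.0619) but did in DESeq2 (0.14, adjusted p = 0.0374) and on leaving out single libraries, at 0.17 to 0.19 (the third of parental DU145 or PC3, the first of resistant DU145 or the second of resistant PC3).

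Growth factor receptors and their ligands were divided. Of 29 receptor tyrosine kinases and ligands tested, 9 were called above 0 and 7 below, and the median of 0.01 over all 29 took the other sign in 17 of the 21 alternative settings. EGFR measured 199, 202 and 202 CPM in parental DU145, 504, 515 and 512 in resistant DU145, 88.9, 89.6 and 84.5 in parental PC3 and 221, 224 and 233 in resistant PC3. It rose by 1.34 ± 0.04 in DU145 and 1.37 ± 0.04 in PC3, without overlap, and the 95% interval of the interaction was -0.09 to 0.13. Its ligands differed: TGFA rose in PC3 from 2.29 to 66.9 CPM with a DU145 change of 0.21 ± 0.09 (4.66 ± 0.14), and EGF fell in DU145 and rose in PC3, from 15.2 to 1.07 CPM in DU145 and from 4.37 to 7.45 in PC3 (4.59 ± 0.37). AXL, a kinase linked to drug tolerance, went from 974 to 812 CPM in DU145 and from 87.1 to 414 in PC3 (2.51 ± 0.05), and the ephrin receptor EPHB2 from 3.96 to 11.6 CPM in DU145 and from 34.1 to 2.28 in PC3 (-5.44 ± 0.20).

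Most genes induced by ERK signalling, many of which feed back on it, rose in DU145, while PC3 was split. Of 25 MAPK feedback and AP-1 genes tested, 14 were called below 0 and 6 above (median over all 25 -0.75, ranging from -0.86 to -0.36 over the alternatives), 18 rose in DU145 against 9 in PC3, and 8 of the 10 opposite genes rose in DU145. SPRY4, a brake on receptor kinase signalling, measured 7.93, 6.88 and 6.97 CPM in parental DU145, 17.1, 21.5 and 14.8 in resistant DU145, 461, 461 and 491 in parental PC3 and 37.4, 36.7 and 38.8 in resistant PC3. Parental PC3 was far above the other groups and no groups within a line overlapped (-4.94 ± 0.15, adjusted p = 2.89e-11, edgeR). DUSP6, the ERK phosphatase, went from 7.07 to 33.8 CPM in DU145 and from 258 to 76.8 in PC3 (-4.0 ± 0.17), and PHLDA1 from 137 to 389.7 CPM in DU145 and from 545 to 448 in PC3 (-1.79 ± 0.07). MYC had an interaction of 0.10 ± 0.08 that did not pass (95% interval -0.06 to 0.27).

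Targets of YAP and TEAD, the effectors of the Hippo pathway, split, with 9 called above and 12 below 0 among 26 tested. CCN1 and the GTPase-activating gene DLC1 (from 12.9 to 59.8 CPM in DU145 and from 0.528 to 35.2 in PC3; 3.83 ± 0.22) were above 0, and the ectoenzyme NT5E (from 112 to 300.2 CPM in DU145 and from 205 to 42.7 in PC3; -3.68 ± 0.08) and ARHGEF17, a guanine nucleotide exchange factor (from 71.0 to 43.4 CPM in DU145 and from 33.6 to 2.43 in PC3; -3.08 ± 0.16), below.

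NF-kB, a family of inflammatory transcription factors held in check by IkB proteins, drives many cytokine genes. Of 30 target and pathway genes tested, 16 were called below 0 and 8 above (median over all 30 -0.46, ranging from -1.69 to -0.42 over the alternatives), and 15 moved oppositely, 12 of them up in DU145. ICAM1, a leukocyte adhesion receptor, measured 107, 106 and 117 CPM in parental DU145, 426, 420.1 and 438 in resistant DU145, 642, 641 and 675 in parental PC3 and 114, 112 and 115 in resistant PC3. Resistant DU145 and parental PC3 were high and groups within a line did not overlap (-4.48 ± 0.06, adjusted p = 3.91e-16, edgeR). The chemokines CXCL5 (from 1.54 to 25 CPM in DU145 and from 30.6 to 11.2 in PC3; -5.47 ± 0.21) and CXCL1 (from 3.88 to 40.3 CPM in DU145 and from 222 to 172 in PC3; -3.75 ± 0.14) and the inhibitor NFKBIA (from 96.3 to 262 CPM in DU145 and from 179 to 128 in PC3; -1.93 ± 0.06) also rose in DU145 and fell in PC3.

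Other members of the list, picked here for their direction, moved the opposite way. CSF2, the granulocyte-macrophage growth factor, measured 8.70, 6.67 and 7.32 CPM in parental DU145, 0.0904, 0 and 0.106 in resistant DU145, 1.39, 0.920 and 1.14 in parental PC3 and 9.53, 11.8 and 9.53 in resistant PC3. It nearly disappeared from resistant DU145 and rose in every resistant PC3 library (9.96 ± 0.61, adjusted p = 2.22e-09, edgeR). IL6 went from 13.3 to 1.35 CPM in DU145 and from 0.410 to 0.993 in PC3 (4.58 ± 0.58) and CXCL8, interleukin 8, from 158 to 24.7 CPM in DU145 and from 163 to 187 in PC3 (2.87 ± 0.07), both falling in DU145 and rising in PC3. Members of 1 list thus had interactions from -5.47 to 9.96.

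Interferon-stimulated genes were divided too, and neighbours of 1 family went apart. Of 35 tested, 11 were called above 0 and 17 below (median over all 35 -0.84, ranging from -1.02 to -0.20 over the alternatives); 14 rose and 16 fell in DU145, and 10 rose and 17 fell in PC3. The antiviral gene IFIT3 measured 10.0, 9.48 and 10.4 CPM in parental DU145, 118, 117 and 125 in resistant DU145, 12.7, 12.7 and 14.7 in parental PC3 and 9.83, 12.4 and 11.7 in resistant PC3. It rose strongly in DU145 and fell slightly in PC3 (-3.83 ± 0.13, adjusted p = 2.06e-12, edgeR). Its neighbour IFIT1 measured 131, 128 and 138 CPM in parental DU145, 8.5, 8.58 and 9.68 in resistant DU145, 25.4, 25.1 and 38.8 in parental PC3 and 13.8, 11.4 and 11.4 in resistant PC3. IFIT1 fell in both lines and far more in DU145, so its interaction was above 0 (2.61 ± 0.21, adjusted p = 3.01e-07).

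Other members lined up with each of these. IFIT2 went from 6.43 to 95.7 CPM in DU145 and from 25.4 to 38.5 in PC3 (-3.30 ± 0.14) and OAS1, which makes the activator of RNase L, from 0.106 to 1.63 CPM in DU145 and from 29.8 to 3.74 in PC3 (-6.92 ± 0.57), below 0 like IFIT3. ISG15, a ubiquitin-like modifier, went from 123 to 17.6 CPM in DU145 and from 63.9 to 55.7 in PC3 (2.60 ± 0.12) and IFI6 from 71.7 to 5.86 CPM in DU145 and from 24.6 to 14.8 in PC3 (2.88 ± 0.32), above 0 like IFIT1. The IFIT genes lie within or beside LIPA on the other strand.

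The promoters of IFIT3 and IFIT1 are shown because the genes are neighbours with interactions of opposite sign. Each stretch covers the 250 bases before the start on the plus strand (GRCh38.p14, RefSeq; IFIT3 at chr10:89327747-89327996, IFIT1 at chr10:89392373-89392622), and capitals mark matches to the interferon-stimulated response element written GAAANNGAAA or its other strand TTTCNNTTTC:
IFIT3: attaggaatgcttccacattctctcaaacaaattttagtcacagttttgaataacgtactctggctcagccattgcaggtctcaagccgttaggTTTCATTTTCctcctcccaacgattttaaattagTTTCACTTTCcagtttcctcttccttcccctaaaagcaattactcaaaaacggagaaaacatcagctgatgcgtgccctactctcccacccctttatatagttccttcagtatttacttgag
IFIT1: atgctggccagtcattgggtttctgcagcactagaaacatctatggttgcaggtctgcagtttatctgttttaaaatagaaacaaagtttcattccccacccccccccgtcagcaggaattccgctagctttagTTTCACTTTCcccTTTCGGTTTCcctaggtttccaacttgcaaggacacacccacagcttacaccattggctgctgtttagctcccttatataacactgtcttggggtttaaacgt
Each promoter held 2 matches. Such a match was present in 8 of 13 promoters of list genes called below 0 and in 8 of 9 called above 0, against 3.07% of all promoters, so genes of both signs carried it.

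Antigen presentation by MHC class I was mostly below 0. Of 21 genes tested, 13 were called below 0 and 5 above (median over all 21 -1.27), and 9 of the 11 opposite genes rose in DU145. TAP1, a subunit of the peptide transporter, measured 27.2, 24.4 and 21.9 CPM in parental DU145, 61.5, 59.1 and 69.5 in resistant DU145, 59.0, 55.0 and 60.3 in parental PC3 and 27.5, 29 and 25.5 in resistant PC3. It rose in DU145 and fell in PC3 without overlap (-2.46 ± 0.12, adjusted p = 2.3e-10, edgeR). The immunoproteasome genes PSMB9 and PSMB8 rose in DU145 alone, from 0.945 to 8.08 CPM (-3.26 ± 0.40) and 4.95 to 28.2 CPM (-2.47 ± 0.17). The heavy chain HLA-C went from 58.3 to 156 CPM in DU145 and from 91.3 to 59.9 in PC3 (-2.03 ± 0.10), while the light chain B2M fell in both lines with an interaction of 0.15 ± 0.07 that did not pass (adjusted p = 0.136) but did without the first library of resistant PC3 (0.20). Reads may be shared among HLA genes, and PSMB9, PSMB8 and TAP1 overlap each other or their antisense genes. Most of these genes lie on chromosome 6, whose neighbourhood is described below.

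**Figure D3:**
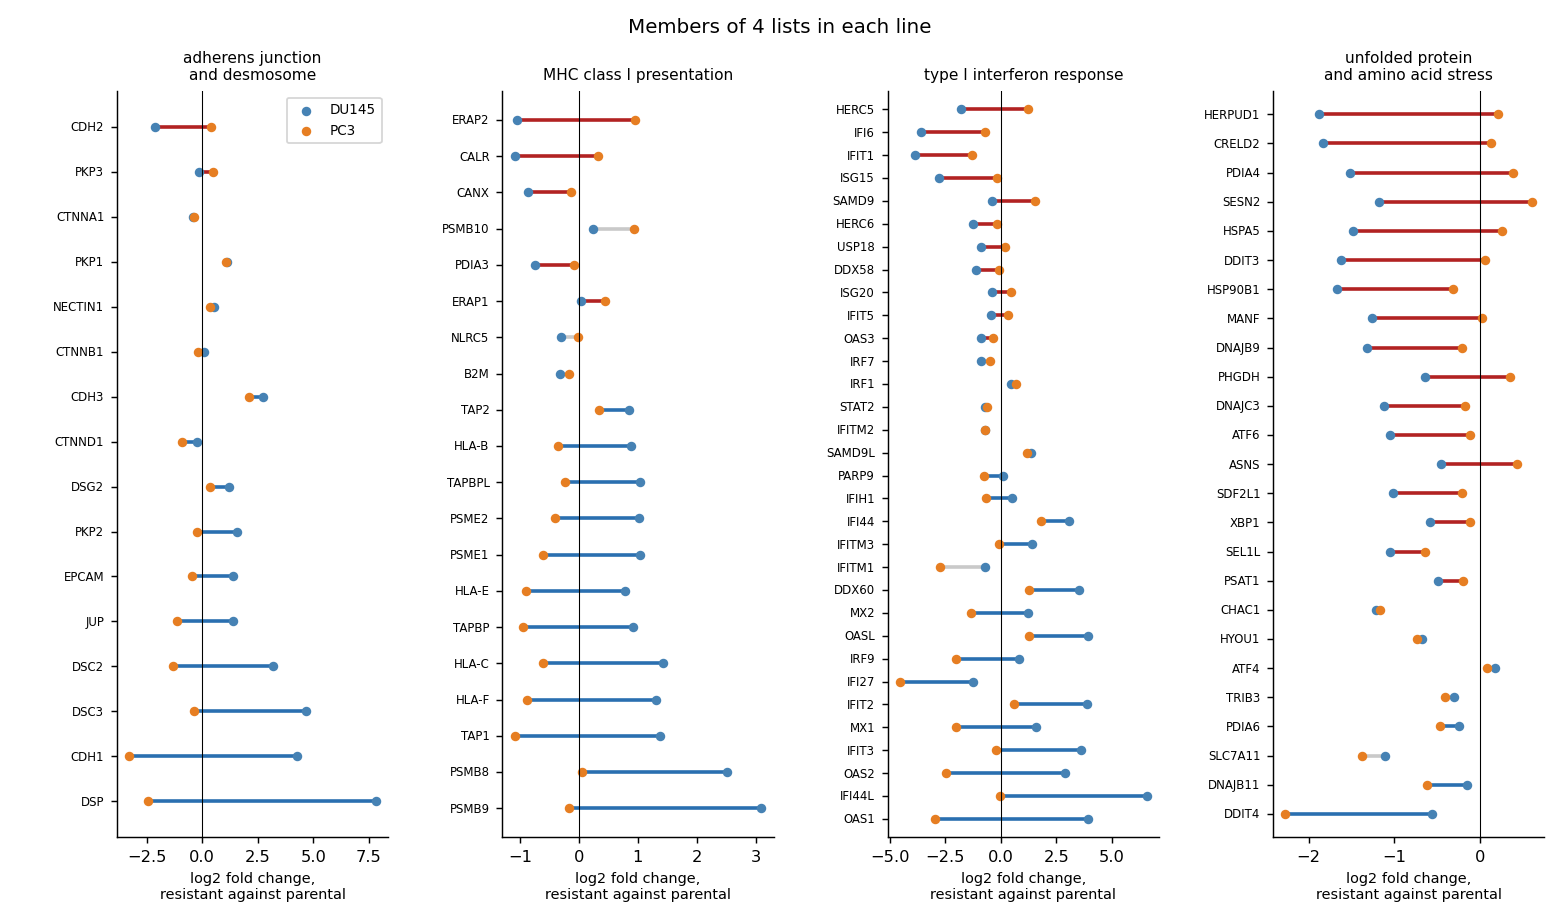
Log2 change in DU145 (blue) and PC3 (orange) for each tested member of the junction, MHC class I, interferon and unfolded protein lists, joined by a line and ordered by the interaction, leaving out members with a group at no count and members not shown here. Junction genes mostly stretch to the right in DU145, and some to the left in PC3 (DSP 7.83 ± 0.22 and -2.43 ± 0.19), and most protein-folding stress genes lie lower in DU145 than in PC3.

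Protein folding in the endoplasmic reticulum showed the reverse sign. Of 25 unfolded protein and amino acid stress genes tested, 24 fell in DU145 and 1 rose, while 6 rose and 11 fell in PC3. The interaction was called above 0 for 17 and below for 3 (median over all 25 0.88), and all 6 opposite genes rose in PC3. HSPA5, the chaperone BiP that restrains the stress sensors, measured 2223, 2225 and 2096 CPM in parental DU145, 788, 766 and 788 in resistant DU145, 672, 714 and 693 in parental PC3 and 834, 832 and 815 in resistant PC3. Parental DU145 was far above the other groups, and the PC3 groups differed little but without overlap (1.74 ± 0.05, adjusted p = 2.18e-13, edgeR). HERPUD1, which helps to degrade misfolded proteins, went from 135 to 36.8 CPM in DU145 and from 56.4 to 65.2 in PC3 (2.09 ± 0.10), PDIA4, a disulfide isomerase, from 791 to 277 CPM in DU145 and from 361 to 472 in PC3 (1.9 ± 0.07), and HSP90B1, the reticulum's HSP90, from 2226 to 703 CPM in DU145 and from 1495 to 1196 in PC3 (1.34 ± 0.05). CRELD2 and DDIT3, the stress factor CHOP, fell in DU145 alone (1.96 ± 0.12 and 1.68 ± 0.18). PHGDH, the first enzyme of serine synthesis, fell in DU145 and rose in PC3 (1.0 ± 0.09).

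The HSPA5 promoter is shown as the example of a motif rare among the promoters searched and found in members of this list. The stretch covers the 250 bases before the start (chr9:125241344-125241593, minus strand, written 5′ to 3′, GRCh38.p14, RefSeq), and capitals mark the match to the endoplasmic reticulum stress element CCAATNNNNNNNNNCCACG (other strand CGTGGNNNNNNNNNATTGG):
HSPA5: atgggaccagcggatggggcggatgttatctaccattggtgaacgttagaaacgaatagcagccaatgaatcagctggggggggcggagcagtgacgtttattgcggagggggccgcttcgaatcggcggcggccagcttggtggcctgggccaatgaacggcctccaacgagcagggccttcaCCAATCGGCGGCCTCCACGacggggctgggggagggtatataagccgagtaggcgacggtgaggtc
It held 1 match. The element was found in 4 of 17 promoters of list genes called above 0 (HSPA5, HSP90B1, XBP1 and CRELD2) and in 0 of 3 below 0, against 0.0806% of all promoters, which are 22 in number.

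Cytosolic chaperones and antioxidant genes were mostly above 0 as well. Of 17 chaperones and cochaperones tested, 10 were called above 0 and 2 below (median over all 17 0.67, ranging from 0.22 to 0.70 over the alternatives), and 12 rose in PC3 against 5 in DU145. DNAJB4, an HSP40, went from 168 to 83.9 CPM in DU145 and from 3.90 to 14.1 in PC3 (2.86 ± 0.19), the small heat shock protein HSPB1 from 133 to 43.9 CPM in DU145 and from 113 to 132 in PC3 (1.82 ± 0.08), and BAG3, a cochaperone of selective autophagy, fell in PC3 alone (-1.18 ± 0.07). Of 29 NRF2 and glutathione genes, 19 were called above 0 and 3 below (median over all 29 0.70): 15 fell in DU145 and 15 rose in PC3. NQO1, a quinone reductase and standard NRF2 target, measured 1907, 1829.8 and 1803 CPM in parental DU145, 795, 747 and 739 in resistant DU145, 100.5, 92.2 and 87.1 in parental PC3 and 177, 186 and 189.8 in resistant PC3. It fell in every resistant DU145 library and rose in every resistant PC3 library (2.26 ± 0.07, adjusted p = 8.12e-13, edgeR). GCLM, a subunit of the enzyme that starts glutathione synthesis, went from 146 to 101 CPM in DU145 and from 20.7 to 63.3 in PC3 (2.14 ± 0.11), thioredoxin, TXN, from 337 to 271 CPM in DU145 and from 83.7 to 207 in PC3 (1.62 ± 0.08), and AKR1C3, a reductase of steroids and carbonyls, fell in DU145 alone, from 57.9 to 8.59 CPM (2.66 ± 0.16).

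Protein-coding transcripts of the mitochondrial genome moved oppositely. All 13 rose in DU145 and fell in PC3, with interactions called below 0 (median -1.70). MT-ND1, a subunit of complex I, measured 1188, 1178 and 1154 CPM in parental DU145, 3497, 3572 and 3528 in resistant DU145, 2865, 2788 and 2891 in parental PC3 and 1598, 1586 and 1628 in resistant PC3 (-2.42 ± 0.04, adjusted p = 9.7e-16, edgeR), and groups within a line did not overlap. MT-CO3 and MT-CO1, of complex IV, had interactions of -2.22 ± 0.06 and -1.70 ± 0.03. The other transcripts of that genome differed from this: both ribosomal RNAs were called below 0 without passing oppositely in the lines, and of 22 transfer RNAs 10 were called above 0, 4 below and 8 not at all (median 0.36). With all genes of the mitochondrial chromosome left out before filtering and scaling, an alternative chosen after the data were seen, 10129 genes were called.

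Within each line, most genes of the glycolysis and lipid synthesis lists fell, though not always the same genes. Of 32 hypoxia and glycolysis genes tested, 10 were called above 0 and 15 below (median over all 32 -0.22, ranging from -0.34 to -0.15 over the alternatives). In DU145 18 fell and 8 rose, in PC3 17 fell and 8 rose, and 7 moved oppositely. The glucose transporter SLC2A1 fell further in PC3, from 165 to 45.5 CPM (-1.65 ± 0.08), the regulatory kinase PFKFB3 rose in DU145 and fell in PC3 (-1.81 ± 0.08), and the hypoxia factor EPAS1 rose in both lines but more in DU145, from 10.1 to 117 CPM in DU145 and from 9.36 to 36.6 in PC3 (-1.56 ± 0.15). HK2, a hexokinase, moved the other way (0.94 ± 0.08), and NDRG1, a hypoxia-induced gene, fell in both lines, from 268 to 81.1 CPM in DU145 and from 1125 to 358 in PC3, with an interaction of 0.07 ± 0.10 that passed only without the third library of resistant DU145 (0.18). Of 30 cholesterol and fatty acid genes, 6 were called above 0 and 15 below (median over all 30 -0.36), with 19 falling in DU145 and 21 in PC3. SCD, the desaturase that makes monounsaturated fats, went from 494 to 629 CPM in DU145 and from 1032 to 159 in PC3 (-3.05 ± 0.09), and SREBF2, the transcription factor of sterol synthesis, fell further in PC3 (-1.03 ± 0.08).

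Most proliferation genes with a call were above 0. Of 35 mitosis and spindle checkpoint genes tested, 22 rose in DU145 and 31 in PC3, and the interaction was called above 0 for 22 and below for 3 (median over all 35 0.55). MAD2L1, which holds the spindle checkpoint, measured 95.7, 97 and 93.5 CPM in parental DU145, 88.8, 89.4 and 83.1 in resistant DU145, 45.4, 49.8 and 44.3 in parental PC3 and 117, 116 and 119 in resistant PC3. It rose in PC3 without overlap and changed by -0.13 ± 0.05 in DU145 (1.47 ± 0.07). PTTG1, securin, was 1.36 ± 0.13, the microtubule-depolymerising kinesin KIF2C 1.27 ± 0.08 and the centriole kinase PLK4 1.25 ± 0.12. The kinase AURKA rose in both lines, from 80.2 to 179 CPM in DU145 and from 73 to 152 in PC3, with an interaction of -0.10 ± 0.09 that did not pass. Of 33 replication and S phase genes, 15 rose in DU145 and 32 in PC3, and 21 were called above 0 and 1 below (median over all 33 0.57). The origin recognition genes ORC1 (from 33.6 to 37.1 CPM in DU145 and from 12.9 to 48.3 in PC3; 1.76 ± 0.15) and ORC6 (from 79.6 to 57.9 CPM in DU145 and from 19.9 to 48.6 in PC3; 1.75 ± 0.14), GINS2 of the replicative helicase (1.70 ± 0.14) and the licensing factor CDC6 (1.15 ± 0.08) led them.

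Brakes on the cell cycle and death regulators were mixed. Among 20 G1 genes, 10 were called above 0 and 6 below. CDKN1A, the inhibitor p21, measured 34.5, 29.9 and 35.7 CPM in parental DU145, 91.6, 78.2 and 65.3 in resistant DU145, 34.0, 32.4 and 32.3 in parental PC3 and 12, 11.6 and 11.8 in resistant PC3. It rose in DU145 and fell in PC3 without overlap (-2.71 ± 0.15, adjusted p = 6.03e-10, edgeR), whereas its partner kinase CDK4 fell in DU145 and rose in PC3 (1.41 ± 0.08). Of 37 apoptosis regulators, 9 were called above 0 and 14 below (median over all 37 -0.15, above 0 in limma on log2(FPKM + 1), at 0.03). MCL1, an antiapoptotic protein that wanes in mitotic arrest, went from 416 to 931 CPM in DU145 and from 328 to 270.4 in PC3 (-1.44 ± 0.06), and BCL2L1, which encodes BCL-XL, from 174 to 276 CPM in DU145 and from 358 to 419.8 in PC3 (-0.43 ± 0.05). The proapoptotic genes BMF and BOK were -3.12 ± 0.31 and -1.88 ± 0.16, and the decoy receptor TNFRSF10D rose in DU145 alone, from 23.4 to 113 CPM (-2.91 ± 0.28). Of 12 replication-dependent histone genes, whose transcripts mostly lack a poly(A) tail, 5 were called below 0 and none above. The share called, 41.7%, was near the 42.1% over all genes tested, and 3 to 5 were called below 0 over the alternatives.

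Lineage genes were divided. Of 17 luminal and androgen-related genes tested, 3 were called above 0 and 7 below (median over all 17 -0.36, ranging from -1.66 to -0.19 over the alternatives). TMPRSS2, an androgen-regulated protease gene, fell in PC3 from 36.8 to 1.43 CPM while DU145 held almost none (-5.48 ± 1.21; -9.95 without the second library of parental DU145). PMEPA1, also regulated by androgen, was below 0, as given above.

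Stem and progenitor genes were called below 0 for 6 and above for 3 of 15. CD24, a surface glycoprotein, measured 131, 133 and 129 CPM in parental DU145, 74.9, 69.6 and 70.2 in resistant DU145, 13.4, 15.5 and 16.5 in parental PC3 and 261, 266 and 255 in resistant PC3 (4.98 ± 0.09), the low groups being resistant DU145 within its line and parental PC3. SOX9, a progenitor factor, went from 1.03 to 21.4 CPM in DU145 and from 366 to 77.6 in PC3 (-6.61 ± 0.16), the intermediate filament gene NES rose in DU145 alone, from 1.78 to 19.6 CPM (-3.30 ± 0.13), and ALDH1A3, a retinaldehyde dehydrogenase, rose in both lines but more in DU145 (-3.53 ± 0.23). Among 11 neuroendocrine markers 2 were called above 0 and 2 below, a share of 36.4% against 42.1% over all genes tested. PEG10 and the methyltransferase EZH2 fell in DU145 and rose in PC3 (2.32 ± 0.08 and 1.12 ± 0.08).

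Of 37 Wnt and Notch genes, 11 were called above 0 and 15 below (median over all 37 -0.42, ranging from -0.86 to -0.29 over the alternatives). HES1, the main Notch target, went from 0.0626 to 4.46 CPM in DU145 and from 25.7 to 4.70 in PC3 (-8.52 ± 0.71; -13.66 without the first library of parental DU145). SFRP1, a secreted Wnt antagonist, rose in DU145 alone, from 0.346 to 29.2 CPM (-5.91 ± 0.45), and LEF1, a Wnt transcription factor, rose in PC3 alone, from 0.0780 to 3.71 CPM (6.13 ± 1.71; 11.51 without the second library of parental PC3). RNF43, whose ligase activity clears Wnt receptors from the surface, measured 10.1, 8.61 and 8.66 CPM in parental DU145, 0, 0 and 0 in resistant DU145, 0.0591, 0 and 0.390 in parental PC3 and 0.105, 0.302 and 0.568 in resistant PC3, and no fold is given since 1 group had no count.

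**Figure D4:**
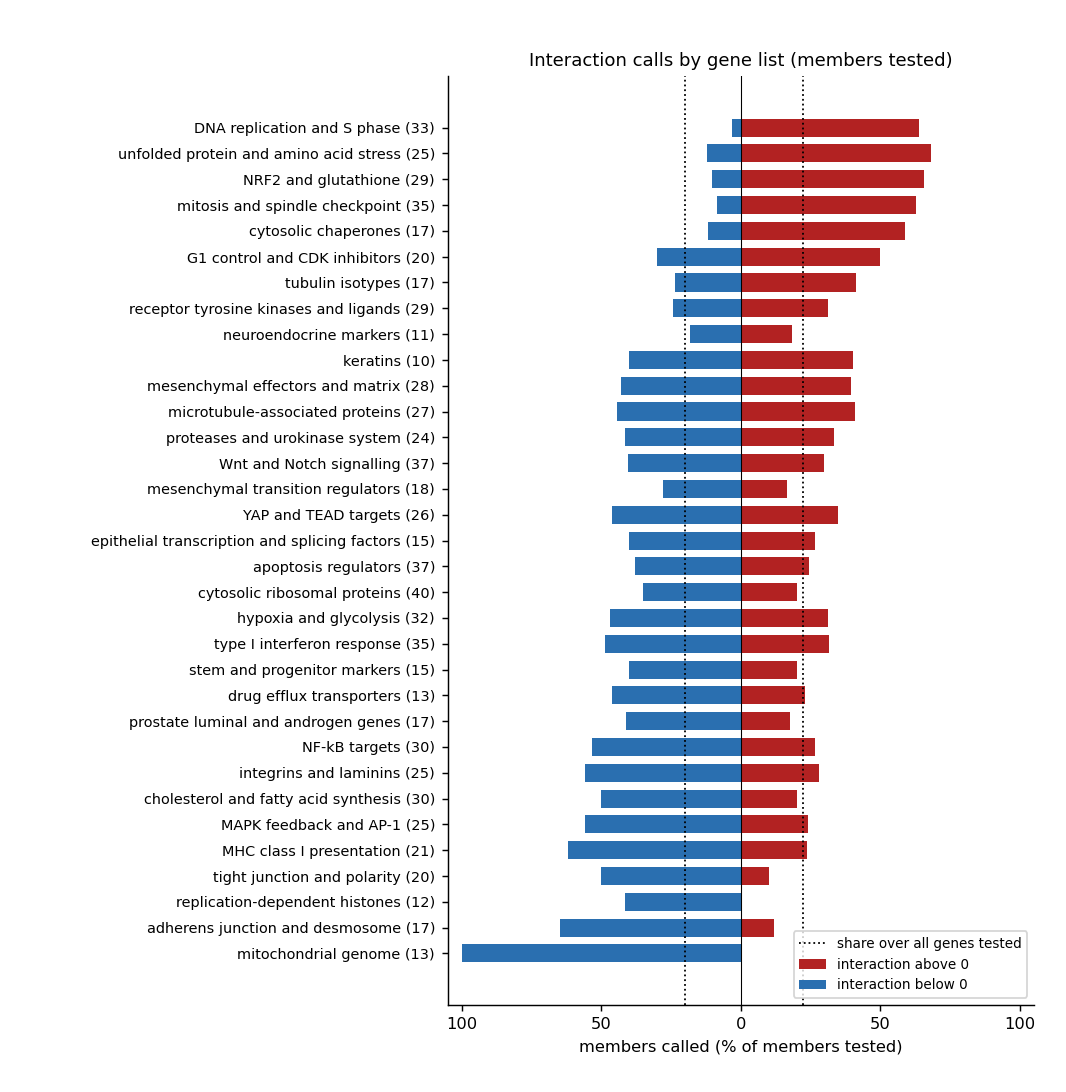
Share of tested members called above 0 (to the right) and below 0 (to the left) for each gene list, in percent of members tested, with dotted lines at the shares over all genes tested (22.1% and 20%). The list of 13 mitochondrial protein-coding genes lies wholly on the left, and the unfolded protein, NRF2 and replication lists lie mainly on the right.

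Some changes were shared. In both lines 3243 genes changed in the same direction, of which 1659 had no call for the interaction, and for 1393 of those the 95% interval lay within 1 log2 unit either side of 0. Over all genes not called, 13978 in number, only 3515 had so narrow an interval, so for most of the others the data cannot say that the lines responded alike. Among genes with large changes in both lines and no call, SNAI2, the repressor Slug, measured 0.260, 0.0601 and 0.231 CPM in parental DU145, 4.10, 3.39 and 1.82 in resistant DU145, 4.07, 3.45 and 3.81 in parental PC3 and 43.2, 44.5 and 42.4 in resistant PC3. Both resistant groups lay above their parental groups, by 4.06 ± 0.36 in DU145 and 3.52 ± 0.28 in PC3, and the 95% interval of the interaction was -1.54 to 0.46.

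The rest of that set covered transporters, trafficking and secreted proteins. ABCC9, a subunit of potassium channels, went from 1.32 to 25.3 CPM in DU145 and from 0.365 to 5.53 in PC3 (interaction -0.34, interval -1.38 to 0.71), and RAB40B, which guides secretion of matrix proteases, from 2.74 to 23.7 CPM in DU145 and from 9.73 to 113 in PC3 (0.43, -1.12 to 1.98). LCN2, an iron-carrier-binding protein, fell in both lines, from 11.6 to 0.329 CPM in DU145 and from 95.7 to 1.49 in PC3 (-0.88, -2.16 to 0.40), as did SUSD2, a membrane protein, from 20.2 to 1.11 CPM in DU145 and from 3.48 to 0.322 in PC3 (0.75, -1.55 to 3.05). All 5 of these intervals, that of SNAI2 included, reach past a 2-fold difference. Their status depends on the method: in limma on log2(FPKM + 1) the interaction was called for all 5, at 1.82 for SNAI2, -0.83 for ABCC9, 1.27 for RAB40B, -2.21 for LCN2 and 1.41 for SUSD2. Single libraries also decide some of them: the interaction passed for LCN2 without the second library of resistant PC3 (-1.32), and that of ABCC9 became 0.60 without the second of parental PC3.

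Some genes were all but absent from a group. At 612 called genes a group had no count in any of its 3 libraries, for which 3 counts over the group would stand for 0.0145 to 0.0154 CPM, a limit that covers counting error only. TCN1, a vitamin B12 carrier, went from 0 to 0.0816 CPM in DU145 and from 125 to 3.75 in PC3, SIDT1, a transmembrane protein of RNA uptake, from 0 to 0.132 CPM in DU145 and from 53.0 to 11.8 in PC3, and NOS1, the neuronal nitric oxide synthase, from 0 to 0.0660 CPM in DU145 and from 42.9 to 0.150 in PC3. In these 3 genes the PC3 parental level was high, resistant PC3 had lost most of it, and DU145 held almost none in either group. The pseudogene NBEAP1 was alike, from 0 to 0.0360 CPM in DU145 and from 115 to 3.11 in PC3. PRXL2A, a redox protein, went from 70.4 to 58.3 CPM in DU145 and from 0.0665 to 0 in PC3, and the proton-sensing receptor GPR4 from 0.0654 to 0 CPM in DU145 and from 48.8 to 31.9 in PC3, each nearly absent from the other line. NBEAP1 had no call without the second library of resistant DU145, PRXL2A had none in limma-voom (adjusted p = 0.248), and GPR4 had none in limma-voom (adjusted p = 0.399), with no filter on low counts (0.0712), with a replicate block (0.0783) or without any 1 of 10 libraries, all but the second of parental DU145 and the second of resistant PC3.

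The differences were also grouped along chromosomes. Cutting the 15769 genes of at least 1 CPM into 618 windows of 25 neighbours, the median interaction of a window was at least 0.8 in 22 and at most -0.8 in 20. Chromosome 1 held 8 of the former and none of the latter, and its median over windows was 0.44; chromosome 6 held 8 of the latter and 1 of the former, with a median of -0.45. The runs given next were picked because their window medians passed these limits, so an excess of calls of that sign follows from the choice. Over all 15769 genes, 4961 were called above 0 and 4342 below. On chromosome 14, from 21351476 to 28265974 (GRCh38), 54 of 75 genes were called below 0 and 2 above. The median there was -1.24, made of a DU145 median change of 0.61 and a PC3 one of -0.61. On chromosome 4, from 128269237 to 183713594, 80 of 125 genes were called above 0 and 11 below (median 1.03), with medians of -0.12 in DU145 and 0.70 in PC3. On chromosome 20, from 35115364 to 36612557, 24 of 25 genes were called below 0. A run on chromosome 5 from 140801028 to 142154440 (median -1.73) holds the overlapping protocadherin genes, whose counts are not independent.

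**Figure D5:**
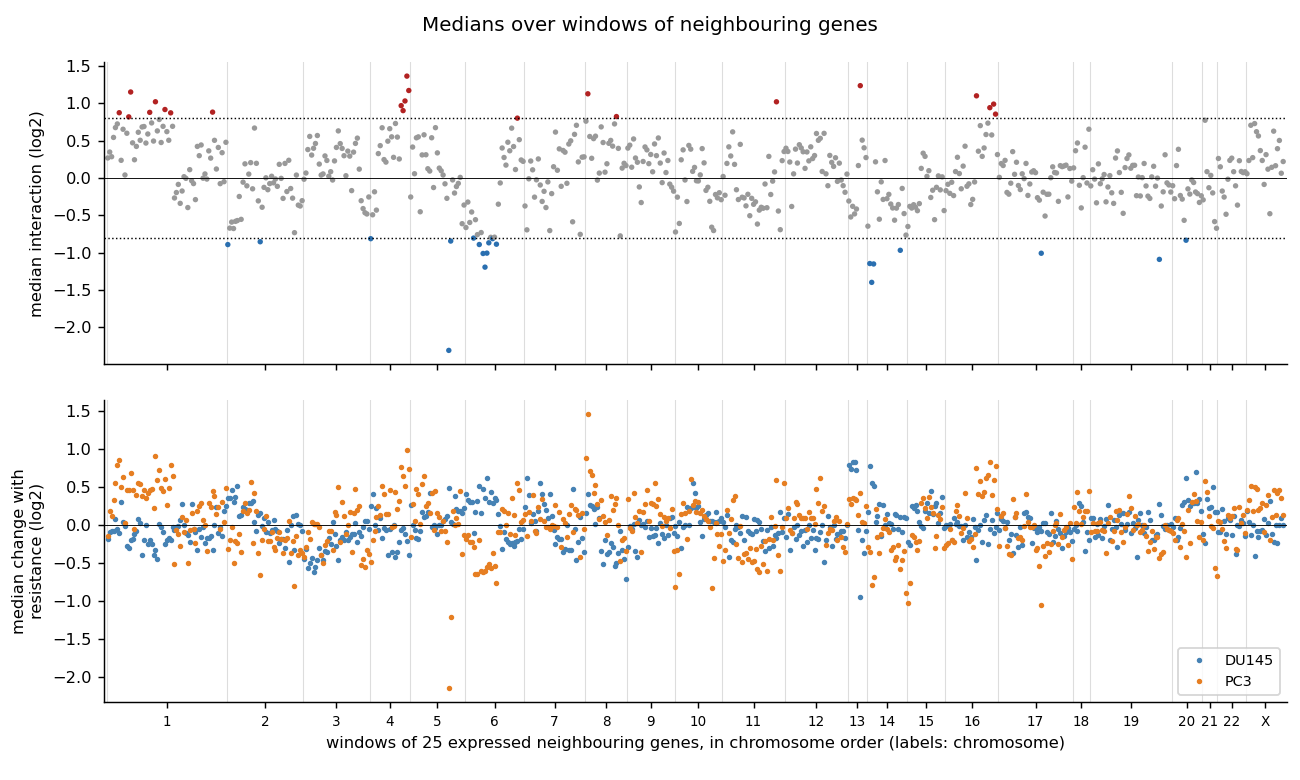
Medians over 618 windows of 25 neighbouring expressed genes in chromosome order: the interaction above, with dotted lines at 0.8 and -0.8, and the changes in DU145 (blue) and PC3 (orange) below. Runs of windows on chromosomes 4 and 14 lie past the lines in opposite directions, with medians of 1.03 and -1.24.

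Such runs touch some of the genes described above. On chromosome 6, from 31762996 to 37045189, 72 of 100 genes were called below 0 and 4 above (median -1.01), in a run picked by its window medians. The 24 neighbours of TAP1 had a median of -1.18, with 17 called below 0 and 1 above. With TAP1 they make up 1 window of that run, so the counts are not separate. Other class I genes can be among them, so whether class I genes moved like other genes there was not tested. The neighbours of DSP had a median of -0.31, with 10 called below 0 and 2 above. CDH1, at -7.57, went against its neighbours, whose median was 0.49 with 13 called above 0 and 2 below, and ABCB1 did so too (neighbours 0.58, 12 above and 7 below). HERPUD1, at 2.09, had neighbours with a median of 0.53. Gene copy number was not measured, and its part in these runs was not tested.

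Cytosolic ribosomal protein genes were divided, with small interactions. Of 40 cytosolic ribosomal protein genes tested, 8 were called above 0 and 14 below, with a median over all 40 of -0.16. The share called was 55%, against 42.1% over all genes tested and 79.3% of genes above 100 CPM. The examples reached -0.82 ± 0.08 for RPS27A, -0.76 ± 0.08 for RPS3 and 0.59 ± 0.09 for RPS2, with pseudogenes that may share reads. Among markers of other cell types, 1 of 6 leukocyte, 1 of 10 fibroblast and 3 of 10 endothelial genes tested were called. These shares, 16.7%, 10% and 30%, compare with 42.1% over all genes tested and 10.1% of genes under 1 CPM. Of the endothelial genes, KDR had no call in limma-voom or with a replicate block. It also had none without the first or the third library of resistant DU145. The leukocyte gene called was CD74 (-2.81 ± 0.76), which had no call without the second library of parental PC3. The fibroblast gene called was COL1A1, a collagen that cancer cells also make, from 8.61 to 4.92 CPM in DU145 and from 103 to 11.5 in PC3 (-2.35 ± 0.27).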

How the data were processed

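Messenger RNA was sequenced in 12 libraries, 3 per group. For each sample the authors deposited counts (whole numbers) and FPKM of 38611 genes, per the file headers. Tools listed in the submitters' processing notes are HISAT2 2.0.4, cutadapt 1.9 and StringTie 1.3.4d, beside edgeR, DESeq2 and the build hg18. The coordinates are those of GRCh38: of 37385 genes shared with GENCODE 29, 37345 overlapped there and 23648 had the same start and end. No counting program, strand setting or annotation release is named (not given in the sources used here), so genes with near-identical copies and genes that overlap another are uncertain, which among the named genes that overlap a coding gene holds for ABCB1, CD74, CDK4, COL4A1, COL4A2, CRELD2, CTNNA1, DDIT3, DLC1, DNAJB4, GINS2, HLA-C, HSP90B1, IFIT1, IFIT2, IFIT3, IL1RL1, ITGA1, KRT7, KRT8, KRT18, KRT81, MT-CO3, PEG10, PLAU, PSMB8, PSMB9, RPS27A, TAP1, TUBA4A and TUBB6.

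The counts were filtered (filterByExpr, 24128 genes), scaled by TMM and fitted with edgeR 4.0.16 in R 4.3.3 (estimateDisp and glmQLFit, robust, 8 residual degrees of freedom). The interaction and the change in each line were tested with the two-sided quasi-likelihood F test, adjusted by Benjamini-Hochberg over all genes tested and called under 0.05. The standard error is the log2 change divided by the square root of F, and intervals are 95%. In data simulated for the interaction, the changed genes were drawn from those of at least 5 CPM, and no other gene had an interaction. The fit on 24128 genes recovered 76% of 100 genes changed by 1 log2 unit and 95% of 100 changed by 2. There were 7 false calls among 23928. Recovery below 5 CPM, or with as many genes differing as the 42.1% called here, was not tested. Levels are CPM on TMM-scaled totals, shown per library or as group means.

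The comparison, the 36 gene lists and the rule for named genes were chosen with earlier results of these data known. The rule took, among genes of at least 5 CPM on average and 30 counts in every group, the 12 largest interactions in each direction, the 8 largest opposite and 6 largest uncalled shared changes. It further took 6 genes with a group at no count, 7 fixed genes and up to 4 called members per list. Another 39 genes, among them the IFIT and ISG genes, HSPA5, HSP90B1, DDIT3, CD44, PLAU, B2M, STMN1, MAP4, AXL and MCL1, were named after their values were seen, some genes the rule took are not reported here, and list members given without library values are further examples chosen in that way. RefSeq promoters (GRCh38.p14) were searched for motifs over the 250 bases before the start, on both strands. Alternatives were other scalings and filters, limma-voom and limma on log2(FPKM + 1) (limma 3.58.1), DESeq2 1.42.0, a replicate block and leaving out each library.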

Additional observations from a re-analysis of the deposited data

Results flagged for a closer look

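The change from parental to resistant cells differed between the lines at 10150 genes by the test of the difference itself, edgeR's quasi-likelihood interaction. Of these, 2920 had changed in opposite directions within the lines. With 1 resistant subline per line, this compares these sublines only. The single genes whose lines differed by this test included SERPINA1 (-11.39), KIAA0040 (-11.31), FAM110C (-9.84), PMEPA1 (-8.65), ABCB1 (-8.40), SALL2 (-7.94), CDH1 (-7.57) and MYO1D (-7.24) below 0, and LHX1 (9.45) and ZEB1 (1.01) above 0. TUBB3 (-0.41) and VIM (-0.40) differed by small amounts while moving the same way in both lines. With 3 libraries per group, no test for an outlying single value was run within a group.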

How the results depend on the processing

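Over 21 alternatives the number of genes called ran from 8360 (a filter at a mean of 5 CPM, which tests fewer genes) to 11929 (limma on log2(FPKM + 1)), against 10150. The count at 2-fold or more, 5089, moved to 3009 under that filter and to 2762 in limma on log2(FPKM + 1). Leaving out 1 library at a time gave 9636 to 9875 calls (4978 to 5223 above 0 and 4474 to 4662 below), 4844 to 5046 of at least 2-fold and 2651 to 2796 opposite, and kept 92% to 93.4% of the calls. The low-count filter was rerun for each of these fits, so they tested 25525 to 25590 genes, against 24128. Calls above 0 were 52.5% of all calls and 49.3% with upper-quartile scaling. No pairing by replicate number was seen: deviations of 18 same-numbered pairs correlated from -0.106 to 0.0727, and those of other pairs from -0.1447 to 0.135. Of 12 libraries, 0 were closest to their own number. Such correlations cannot settle whether same-numbered libraries shared a culture or batch, which the labels do not give. A replicate block gave 9759 calls.

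Of the 210 genes named by rule or after their values were seen, 188 kept direction and call in every alternative that tested them. In limma on log2(FPKM + 1) the sign reversed for SNAI2 (1.82), PRXL2A (0.26), GPR4 (-0.58) and H1-5 (0.12), the call was lost for 5 other genes, among them ABCC2 (0.06), and a call was gained for ABCC9, CTNNA1, LCN2, RAB40B and SUSD2. The cause of these changes and of the fall at 2-fold was not tested. Depth limits the low genes: under 1 CPM the median standard error was 1.81 log2 units.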
